A study of Mus musculus with 6 samples.

Results

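The Hox cluster genes and the TALE genes whose proteins bind DNA beside them were followed in mouse blood progenitors sorted for expression of an EVI1 vector. The set took in every gene with a symbol of Hoxa, Hoxb, Hoxc or Hoxd and a number only, together with Meis1, Meis2, Meis3, Pbx2, Pbx3, Pknox1 and Pknox2. It held 40 of the 18192 genes tested, 33 of them Hox genes and 7 of them TALE genes, each read from 1 probe set. Some other genes of the clusters were not analysed here.

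Lin- haematopoietic progenitors, which are blood-forming cells without the surface antigens of mature blood cells, came from C57BL/6J mice with a doxycycline-responsive transactivator (Rosa26rtTA). They were kept in S3F11 medium with murine stem cell factor (50 ng/ml), murine IL-3 (20 ng/ml), human Flt3 ligand (50 ng/ml) and human IL-11 (50 ng/ml). The EGFP-positive group (3 arrays) was transduced with pRRL.TET.EVI1.IRES.EGFP, a lentiviral vector that makes EVI1 and green fluorescent protein under doxycycline. The EGFP-negative group (3 arrays) is called untransduced in its source label, whereas the design text has a sort of negative or low EGFP cells after transduction; the description field says untransduced for both groups, so groups follow the titles. Per that text, doxycycline (1 µg/ml) acted for 20 hours before sorting. No label gives the age of the mice or says that replicates came from separate animals or cultures. The p-values therefore measure only how far these samples differ, and that spread may be technical.

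Hox proteins are homeodomain transcription factors whose genes lie in clusters, in the same order as the body levels at which they act in the embryo. In blood, Hoxa and Hoxb genes are used by stem and early progenitor cells and decline as cells mature, and sustained Hoxa9 with Meis1 is a feature of many acute myeloid leukaemias. PBX, MEIS and PKNOX proteins carry a homeodomain with an extended loop (TALE), bind DNA together with Hox proteins and raise their selectivity.

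The transcripts of Hoxb3 and Hoxb4, neighbours in the Hoxb cluster, and of Hoxa10 were higher in EGFP-positive cells, by 1.26, 0.72 and 0.57 on the log2 scale. Among the TALE genes, Pbx2 and Pbx3 rose by 0.32 and 0.56, Pknox1 fell by 0.26 and Pknox2 fell by 1.26. The call of Pknox2 held under every alternative run, while those of Pbx2, Pbx3 and Pknox1 were lost under several. Hoxa9 and Meis1 did not pass the test, with differences of -0.07 and -0.24. No member of the Hoxc or Hoxd clusters passed, and every Hoxd gene had both group means under the highest value of bacterial control probe sets.

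Each value below is the log2 expression of a probe set as deposited after RMA, a method that normalizes arrays and summarises probes. Differences are EGFP-positive minus EGFP-negative from limma, a linear model fitted over all 18192 genes, with p adjusted over those genes by Benjamini-Hochberg and a threshold of 0.05. The highest value of 27 probe sets for bacterial transcripts, 3.61, served as the background ceiling, and a gene with both group means under it is called not above background. Signals of different probe sets have no common scale, so levels are compared between groups and not between genes.

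By this test 8 of the 40 members (20.0%) passed, against 33.2% of all genes. Of the 19 members above background 7 passed (36.8%), and of the 21 not above background 1 passed. The 33.2% also counts genes not above background, so it is not a matched share for those 19 members. In EGFP-positive cells 5 members were higher, against 16.0% of all genes, and 3 were lower, against 17.2%. The share was 12.1% among the 33 Hox genes, and 60.6% of the Hox genes were not above background, against 26.2% of all genes. The median difference was 0.06 over the 40 members and 0.02 over all genes. The groups did not overlap for 18 of the 40 members, against 48.2% of all genes.

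Promoter sequence was at hand for 23 of the 40 members, and it is shown for the genes above background that passed, since those are the transcripts the comparison turns on. Each run gives 130 bases before and 20 bases after a start of transcription on GRCm38.p6, from RefSeq, written 5′ to 3′ on the gene's own strand. Capitals mark letters of a searched motif, and Hoxa10 has 2 starts in the table. No such sequence was used for Hoxb3, Pbx3, Pknox1 or Pknox2.
Hoxb4, chr11:96318137-96318286, plus strand: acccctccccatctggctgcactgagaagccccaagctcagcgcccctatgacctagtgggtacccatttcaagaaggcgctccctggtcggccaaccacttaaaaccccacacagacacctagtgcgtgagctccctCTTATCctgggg
Hoxa10, chr6:52234920-52235069, minus strand: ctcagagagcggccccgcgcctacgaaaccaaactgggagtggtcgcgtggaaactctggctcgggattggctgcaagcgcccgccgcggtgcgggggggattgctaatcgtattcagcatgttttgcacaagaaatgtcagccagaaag
Hoxa10, chr6:52240835-52240984, minus strand: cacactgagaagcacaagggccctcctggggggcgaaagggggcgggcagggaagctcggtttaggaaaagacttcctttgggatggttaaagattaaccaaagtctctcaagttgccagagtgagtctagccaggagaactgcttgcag
Pbx2, chr17:34592129-34592278, plus strand: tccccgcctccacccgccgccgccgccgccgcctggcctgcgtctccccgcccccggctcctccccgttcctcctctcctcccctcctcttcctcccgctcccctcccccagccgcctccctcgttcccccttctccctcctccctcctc

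The motifs searched on both strands in the whole 300-base windows were GATAAG and GAAGATGAG, which occur in binding sites of the EVI1 zinc fingers, TGATNNAT for PBX with Hox, and TGACAG for MEIS and PKNOX. GATAAG was found in 2 of the 25 windows of members and in 7.44% of all 32851 promoters. TGATNNAT was in 3 of the 25 windows and in 8.85% of all promoters, and TGACAG was in 2 of the 25 and in 19.2%. GAAGATGAG was in 0 of the 25 and in 0.399% of all. The Hoxb4 window held 1 GATAAG, on the opposite strand, whose letters begin 9 bases into the transcript and appear as CTTATC. The windows of Hoxa10 and Pbx2 held none of these letters. Matches are a description of letters and say nothing of binding.

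The Hoxb cluster held the member with the smallest p. Hoxb3 read 8.67, 8.78 and 8.79 in EGFP-positive replicates 1 to 3, against 7.58, 7.48 and 7.40 in EGFP-negative replicates. Every EGFP-positive array lay above every EGFP-negative array, and the arrays of either group lay close together. The means were 8.75 ± 0.07 in EGFP-positive and 7.49 ± 0.09 in EGFP-negative arrays (SD, n = 3 each), a 2.40-fold difference (log2 1.26, SE 0.09, adjusted p = 0.00017 by limma). Hoxb3 acts in hindbrain patterning and in early blood progenitors. Its second probe set read 6.26, 6.55 and 6.27 in EGFP-positive arrays and 5.07, 4.75 and 5.28 in EGFP-negative arrays. That difference, 1.33, was close to that of the chosen probe set.

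Hoxb4, which expands blood stem cells when overexpressed, read 6.98, 6.98 and 6.93 in EGFP-positive arrays and 6.04, 6.14 and 6.55 in EGFP-negative arrays. The groups did not overlap, and EGFP-negative replicate 3 stood nearest to the EGFP-positive arrays. The means were 6.96 ± 0.03 in EGFP-positive and 6.25 ± 0.27 in EGFP-negative arrays (SD, n = 3 each), a 1.65-fold difference (log2 0.72, SE 0.14, limma adjusted p = 0.011). Its other probe set read 5.08, 4.48 and 4.27 in EGFP-positive arrays and 4.08, 4.39 and 4.37 in EGFP-negative arrays. There the groups overlapped (0.33, limma adjusted p = 0.35 over probe sets). With the mean of both probe sets Hoxb4 still passed (0.52, adjusted p = 0.0375).

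Hoxb5, the next gene of the cluster, read 5.05, 4.38 and 5.73 in EGFP-positive arrays and 4.85, 4.38 and 4.16 in EGFP-negative arrays. EGFP-positive replicate 2 lay among the EGFP-negative arrays, and the difference of 0.59 did not pass (95% interval -0.28 to 1.46, limma adjusted p = 0.27). Hoxb9 read 4.23, 3.98 and 4.39 in EGFP-positive arrays and 4.38, 3.91 and 4.14 in EGFP-negative arrays, with a difference of 0.05 and overlapping groups. The remaining Hoxb genes, Hoxb1, Hoxb2, Hoxb6, Hoxb7 and Hoxb13, were not above background. Within the cluster 2 of 9 genes rose and 0 fell, where 16.0% of all genes were higher and 17.2% lower. The median difference of the cluster was 0.05.

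**Figure D1:**
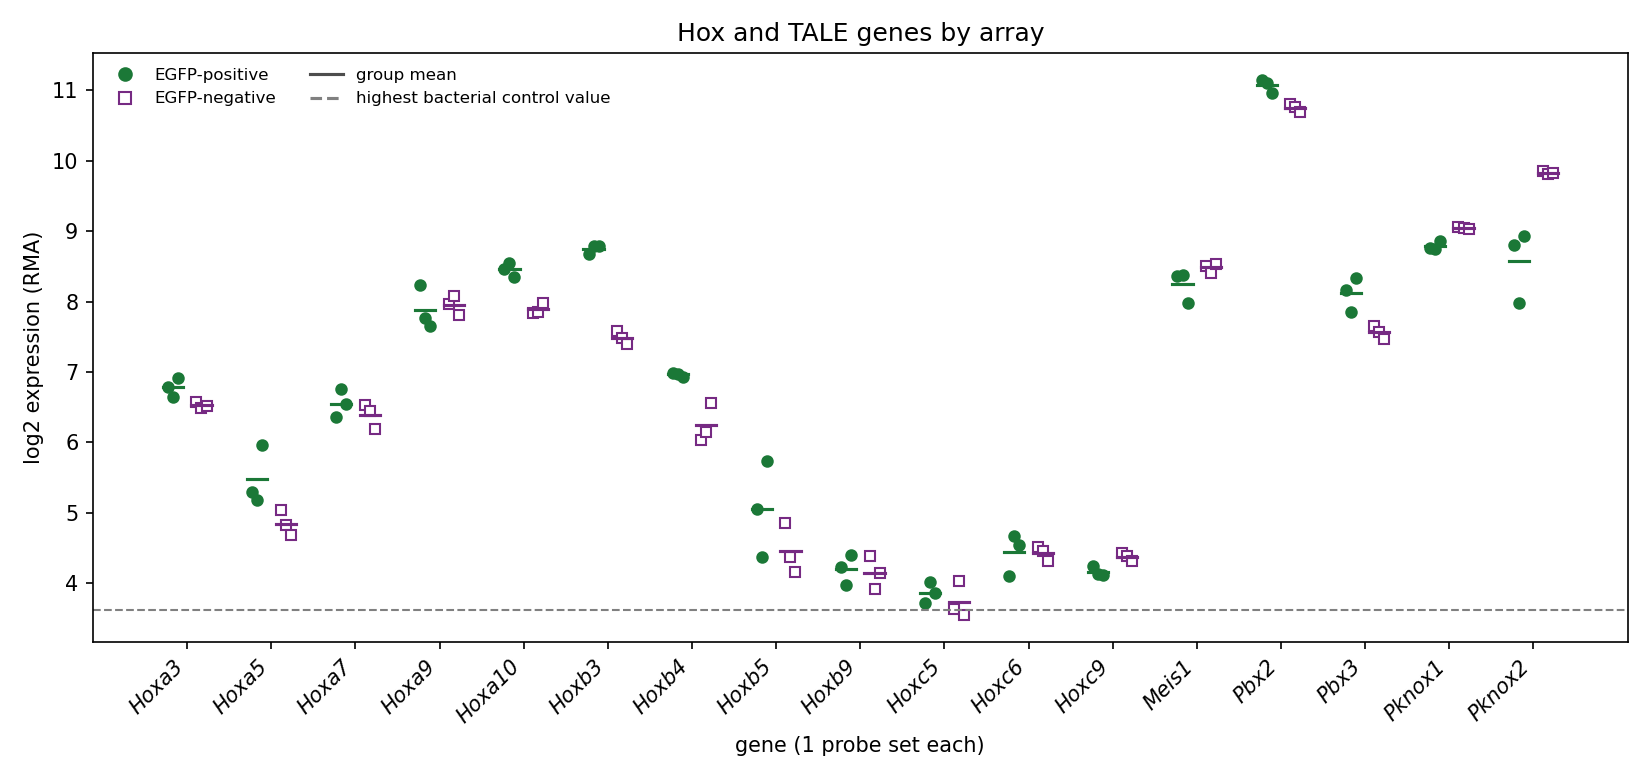
Log2 expression (RMA) of the 17 members described array by array, with 3 EGFP-positive arrays (filled circles) left of 3 EGFP-negative arrays (open squares), horizontal bars for group means and a dashed line at the highest bacterial control value, 3.61. The groups of Hoxb3 are wide apart (means 8.75 in EGFP-positive and 7.49 in EGFP-negative arrays), those of Hoxa9 overlap, and EGFP-positive replicate 2 is the lowest array for Pknox2 (7.98).

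In the Hoxa cluster the posterior gene Hoxa10, which acts in uterus and limb and in early myeloid and lymphoid progenitors, was the member above background that passed. It read 8.47, 8.55 and 8.36 in EGFP-positive arrays, against 7.83, 7.86 and 7.98 in EGFP-negative arrays. The groups did not overlap, and their means were 8.46 ± 0.10 in EGFP-positive and 7.89 ± 0.08 in EGFP-negative arrays (SD, n = 3 each), a 1.48-fold difference (log2 0.57, SE 0.09, limma adjusted p = 0.0046). Its second probe set was not above background (difference 0.04). With the mean of both probe sets the difference was 0.31 and did not pass (adjusted p = 0.064).

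Hoxa9, a gene that keeps progenitors dividing and lies next to Hoxa10, read 8.23, 7.76 and 7.65 in EGFP-positive arrays and 7.97, 8.08 and 7.82 in EGFP-negative arrays. The highest and the lowest of the 6 values were both EGFP-positive. The difference was -0.07 with a 95% interval of -0.48 to 0.34 (limma adjusted p = 0.80), so changes of that size were not detectable with these arrays. Its other probe set differed by -0.20 and did not pass. Whether the differences of Hoxa10 and Hoxa9 are unequal was not tested.

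The anterior and central Hoxa genes above background had differences of -0.00 to 0.64, and none passed. Hoxa5, which acts in lung and skeletal patterning, read 5.30, 5.18 and 5.97 in EGFP-positive arrays and 5.04, 4.82 and 4.68 in EGFP-negative arrays, without overlap (0.64, limma adjusted p = 0.076). With the mean of its 2 probe sets Hoxa5 passed (0.55, adjusted p = 0.029). Hoxa3, needed for thymus development, read 6.78, 6.65 and 6.92 in EGFP-positive arrays and 6.57, 6.49 and 6.52 in EGFP-negative arrays, also without overlap (0.26, limma adjusted p = 0.090).

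Hoxa7, a gene of early blood progenitors, read 6.35, 6.75 and 6.54 in EGFP-positive arrays and 6.52, 6.44 and 6.19 in EGFP-negative arrays, and the groups overlapped (0.16, limma adjusted p = 0.45). Hoxa4 ranged from 2.84 to 4.79 in EGFP-positive arrays and from 3.50 to 4.48 in EGFP-negative arrays, so its interval, -1.27 to 1.26, left a change of more than 2-fold either way possible. Hoxa2, Hoxa11 and Hoxa13 were not above background. Hoxa11 passed the test as lower (limma adjusted p = 0.049), but with means of 1.82 in EGFP-positive and 2.28 in EGFP-negative arrays no fold is given. Leaving out 1 array ended its call in 5 of 6 cases (adjusted p from 0.10 to 0.14), the exception being EGFP-positive replicate 1.

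Hoxc and Hoxd genes pattern trunk, limb and skin and are little used in blood. Of 7 Hoxc genes 0 passed, against 33.2% of all genes, and 3 were above background. Hoxc9 read 4.24, 4.13 and 4.12 in EGFP-positive arrays and 4.43, 4.39 and 4.32 in EGFP-negative arrays, without overlap (-0.21, limma adjusted p = 0.098). Hoxc6 (4.11, 4.67 and 4.55 in EGFP-positive arrays, 4.51, 4.45 and 4.32 in EGFP-negative arrays) and Hoxc5 (3.71, 4.02 and 3.86 in EGFP-positive arrays, 3.63, 4.04 and 3.54 in EGFP-negative arrays) overlapped between groups. Their differences were 0.02 and 0.13. All 8 Hoxd genes were not above background, and their differences ran from -0.24 to 0.40. By unadjusted p under 0.05, Hoxc4, Hoxc9, Hoxd1 and Hoxd3 would pass, 3 of which were not above background.

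**Figure D2:**
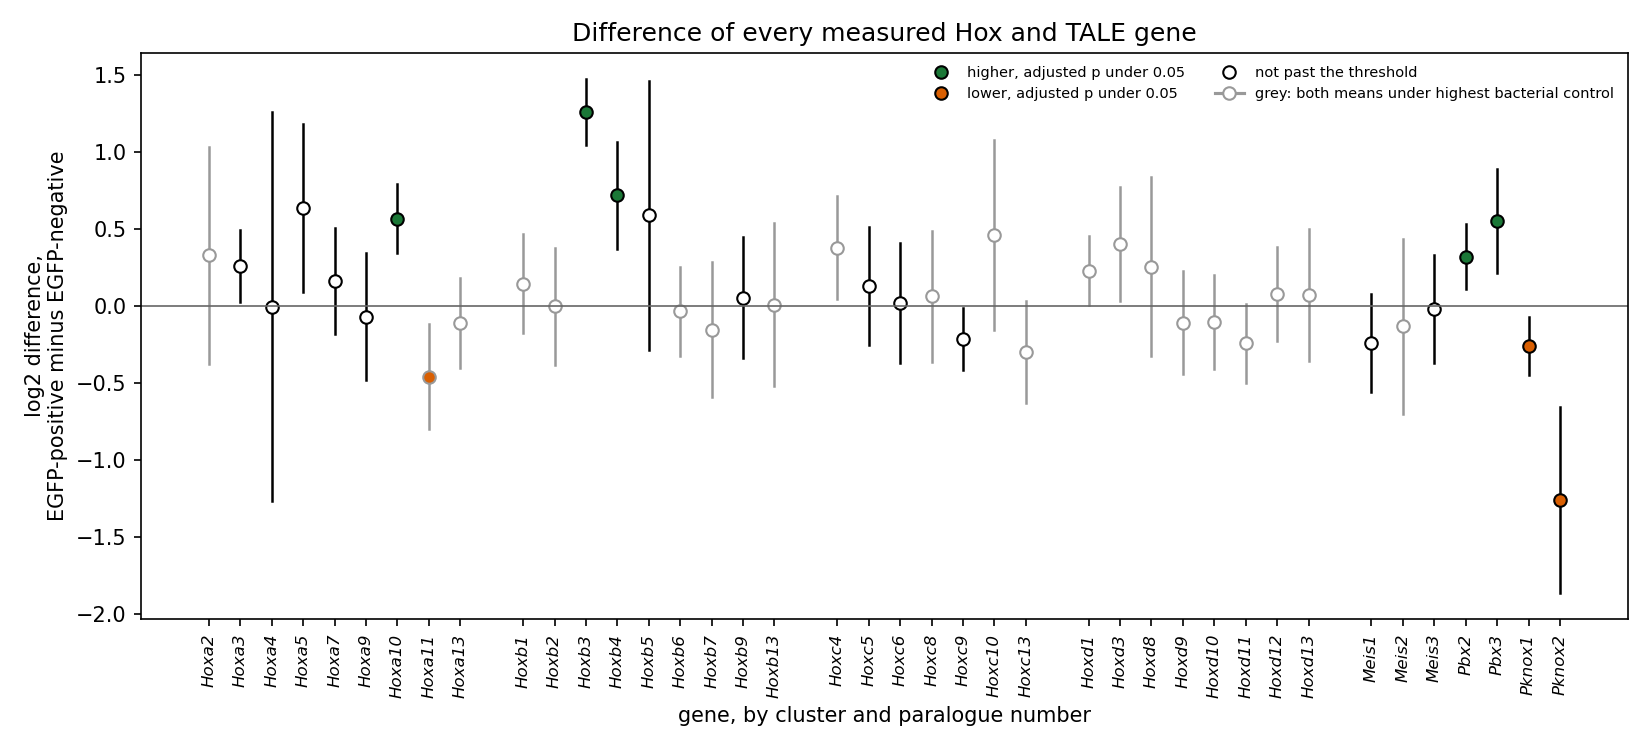
Log2 difference, EGFP-positive minus EGFP-negative, with its 95% interval for all 40 members, ordered by cluster and paralogue number; colour marks genes past the threshold and grey marks genes with both means under the highest bacterial control value. Hoxb3 (1.26) and Pknox2 (-1.26) lie farthest from 0, and every Hoxd gene is grey.

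By paralogue position, 1 of 7 anterior genes (groups 1 to 3) rose, Hoxb3, and 1 of 12 central genes (groups 4 to 8) rose, Hoxb4. Of 14 posterior genes (groups 9 to 13), Hoxa10 rose and Hoxa11, not above background, was lower. Of all genes 16.0% were higher and 17.2% lower. Median differences were 0.26, 0.15 and -0.09. Of the anterior genes 2 were above background, of the central genes 7 and of the posterior genes 4. Among the clusters the medians were 0.16 for Hoxa, 0.05 for Hoxb, 0.06 for Hoxc and 0.08 for Hoxd, against 0.02 for all genes.

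Among the TALE genes 4 of 7 passed, 2 higher and 2 lower, where 33.2% of all genes passed, 16.0% higher and 17.2% lower. Pbx2, a broadly expressed partner of Hox proteins, read 11.15, 11.10 and 10.96 in EGFP-positive arrays, against 10.80, 10.76 and 10.69 in EGFP-negative arrays. The groups did not overlap, and the difference was 1.25-fold (log2 0.32, SE 0.09, limma adjusted p = 0.034). All 3 of its probe sets were higher in EGFP-positive cells, by 0.30 to 0.35. In the fit over all probe sets, where 24.1% passed, only that with 0.35 did (limma adjusted p = 0.030). The chosen probe set had 0.059 and the other 0.081. Leaving out 1 array ended the call of Pbx2 in 5 of 6 cases (adjusted p from 0.077 to 0.10), the exception being EGFP-positive replicate 3.

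Pbx3, a PBX gene often active beside HOXA9 and MEIS1 in human leukaemia, read 8.16, 7.85 and 8.33 in EGFP-positive arrays, against 7.65, 7.57 and 7.47 in EGFP-negative arrays. Again the groups did not overlap (1.47-fold, log2 0.56, SE 0.14, limma adjusted p = 0.025). Its other probe set read 5.96, 5.40 and 5.86 in EGFP-positive arrays and 6.00, 5.63 and 5.73 in EGFP-negative arrays and did not differ beyond that spread (-0.05). With the mean of both, Pbx3 did not pass (0.25, adjusted p = 0.25), so the rise of Pbx3 rests on 1 of 2 probe sets. Leaving out 1 array also ended its call in 5 of 6 cases (adjusted p from 0.054 to 0.086), with EGFP-positive replicate 2 the exception. The probe sets chosen for Pbx2 and Pbx3 are of a type that can match related transcripts.

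The PKNOX genes were lower. Pknox2, the narrowly expressed member of the pair, read 8.80, 7.98 and 8.93 in EGFP-positive arrays, against 9.86, 9.82 and 9.83 in EGFP-negative arrays. The EGFP-negative arrays lay within a few hundredths of each other, while EGFP-positive replicate 2 stood below the other EGFP-positive arrays. The means were 8.57 ± 0.52 in EGFP-positive and 9.83 ± 0.02 in EGFP-negative arrays (SD, n = 3 each), 2.40-fold lower in EGFP-positive cells (log2 -1.26, SE 0.25, limma adjusted p = 0.010). Without EGFP-positive replicate 2 the difference was -0.96 (adjusted p = 0.0017). The other probe set read 4.13, 4.08 and 4.08 in EGFP-positive arrays and 4.28, 4.78 and 4.28 in EGFP-negative arrays, a difference of -0.35 that did not pass. With the mean of both the call held (-0.81, adjusted p = 0.0072).

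Pknox1, the widely expressed partner that stabilises PBX proteins, read 8.76, 8.74 and 8.86 in EGFP-positive arrays, against 9.06, 9.05 and 9.02 in EGFP-negative arrays. The groups did not overlap, and the difference was small (log2 -0.26, SE 0.08, limma adjusted p = 0.044). All 3 of its probe sets were lower, by -0.26 to -0.37, but none passed in the fit over all probe sets (limma adjusted p from 0.055 to 0.084). Leaving out 1 array ended the call of Pknox1 in 5 of 6 cases (adjusted p from 0.095 to 0.13), again with EGFP-positive replicate 3 the exception. It was also lost after quantile normalization (0.052), after a shift of all arrays to a common median (0.065) and with the most variable probe set (0.080).

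Meis1, which drives Hoxa9 leukaemias and maintains blood stem cells, read 8.37, 8.38 and 7.98 in EGFP-positive arrays and 8.51, 8.40 and 8.54 in EGFP-negative arrays. EGFP-positive replicate 3 was the lowest and the other values lay close together, though the groups did not overlap (-0.24, 95% interval -0.56 to 0.08, limma adjusted p = 0.22). All 3 of its probe sets were lower in EGFP-positive cells. Only the middle one by signal passed, and it read 7.33, 7.17 and 6.97 in EGFP-positive arrays and 7.64, 7.70 and 7.49 in EGFP-negative arrays (-0.45). Its limma adjusted p over probe sets was 0.045, and 24.1% of all probe sets passed. Meis3 differed by -0.02 with overlapping groups, and Meis2, which acts in limb and eye, was not above background.

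**Figure D3:**
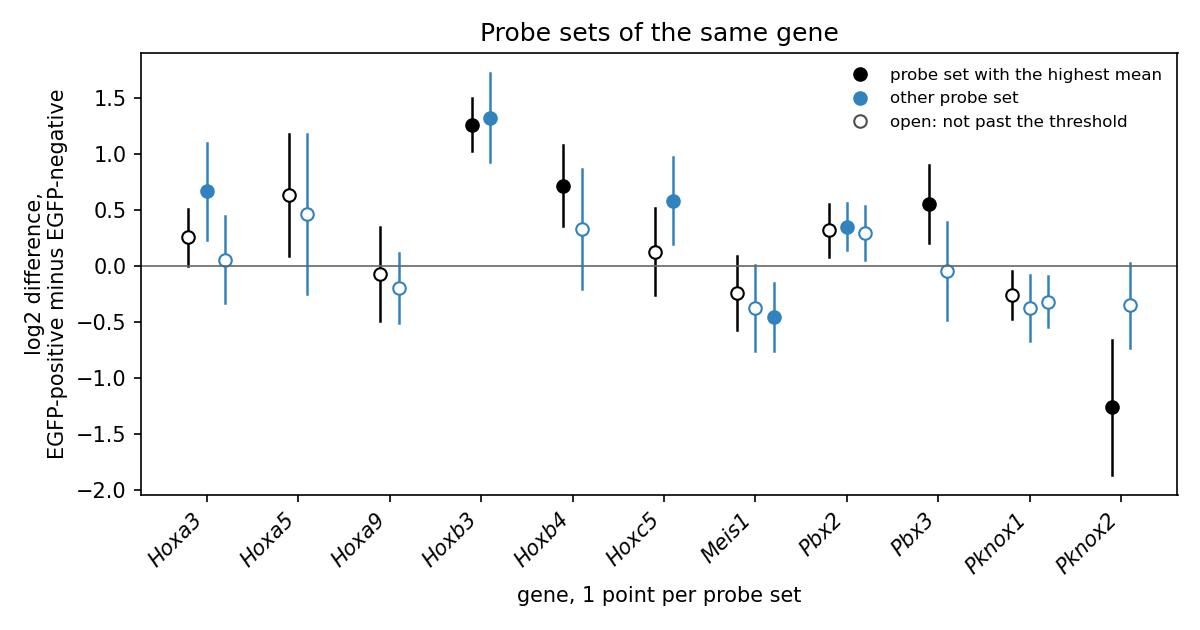
Log2 difference, EGFP-positive minus EGFP-negative, with its 95% interval for each probe set above background of the 11 members with more than 1, from the fit over all probe sets; black is the probe set with the highest mean, blue the others, and filled points passed. Both probe sets of Hoxb3 lie near 1.3, those of Pbx2, Pknox1 and Meis1 share a side of 0, and those of Pbx3 (0.56 and -0.05) and Pknox2 (-1.26 and -0.35) are far apart.

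Genes that set Hox expression moved both ways, mostly by small amounts. Trithorax-side proteins keep Hox genes active, and of 16 measured genes 2 rose and 2 fell (25.0%, against 33.2% of all genes, with a median of 0.12). All 16 were above background, whereas 26.2% of all genes were not, so the 2 shares are not matched. Kdm6b, which removes a repressive histone H3 methyl mark, rose by 0.42 (13.55 ± 0.05 in EGFP-positive arrays, 13.13 ± 0.05 in EGFP-negative arrays, SD, n = 3 each; limma adjusted p = 0.0081). Dot1l, the H3 methyltransferase used by MLL fusion proteins, fell by 0.29 and Wdr5, a core subunit of MLL complexes, fell by 0.37. Mllt1, a reader of the complex that recruits Dot1l, rose by 0.40, but its most variable probe set differed by -0.22. Kmt2a itself differed by 0.08 and did not pass. Leaving out 1 array ended the calls of Mllt1 and Dot1l in 5 of 6 cases each (not without EGFP-positive replicate 1 for Mllt1 and replicate 3 for Dot1l), and that of Wdr5 without each of the 3 EGFP-negative arrays. Of these 4 called genes, Kdm6b kept its call without each array in turn.

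Polycomb proteins hold Hox genes silent, and of 15 measured genes 3 rose and 1 fell (26.7%, against 33.2% of all genes, with a median of 0.22). All 15 were above background, so here too the shares are not matched. Cbx7, a chromodomain subunit of Polycomb complexes in stem cells, rose by 1.86 (7.55 ± 0.34 in EGFP-positive arrays, 5.70 ± 0.06 in EGFP-negative arrays, SD, n = 3 each; limma adjusted p = 0.00050). Cbx8, the chromodomain subunit that takes the same place in the complex, fell by 0.79 (4.39 ± 0.14 in EGFP-positive arrays, 5.18 ± 0.07 in EGFP-negative arrays; limma adjusted p = 0.0017), and by 0.39 with the mean of its probe sets (adjusted p = 0.0329). Phc2 rose by 0.72. Eed passed at 0.32, but its call held only without EGFP-positive replicate 1 when 1 array was left out, and its most variable probe set differed by -0.10. The methyltransferase gene Ezh2 differed by -0.37 and Bmi1, a Polycomb gene of stem cells, by 0.09, and neither passed. Of 4 caudal and nuclear pore genes 0 passed. Cdx1 and Cdx4, which activate Hox genes in the embryo, were not above background. Of the 4, only Nup98 (-0.26), a nuclear pore gene, had an unadjusted p under 0.05.

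Of 9 other TALE genes 0 rose and 2 fell, where 16.0% of all genes were higher and 17.2% lower. Tgif2, a repressor in TGF-beta signalling, fell by 0.85 (7.88 ± 0.13 in EGFP-positive arrays, 8.73 ± 0.04 in EGFP-negative arrays, SD, n = 3 each; limma adjusted p = 0.0010), and Mkx was not above background. Of 10 genes described as HOX or MEIS targets in blood, 1 rose and 6 fell, against the same 16.0% and 17.2% of all genes, with a median of -0.82. All 10 were above background. The chemokine genes Ccl3 and Ccl4 fell by 4.12 and 3.46, the progenitor antigen gene Cd34 fell by 2.75, and Mycn, Flt3 and Myb fell by 1.54, 0.82 and 0.82. Averaged over all probe sets, Mycn differed by -0.86 and Myb by -1.43, and with the most variable probe set Myb differed by -1.80, all past the threshold. Trib2, a kinase-like gene active in myeloid leukaemia, rose by 0.52, but its call held only without EGFP-positive or EGFP-negative replicate 3 when 1 array was left out. Averaged over its probe sets, Trib2 differed by 0.16 (adjusted p = 0.374), and with a replicate block its adjusted p was 0.0817.

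**Figure D4:**
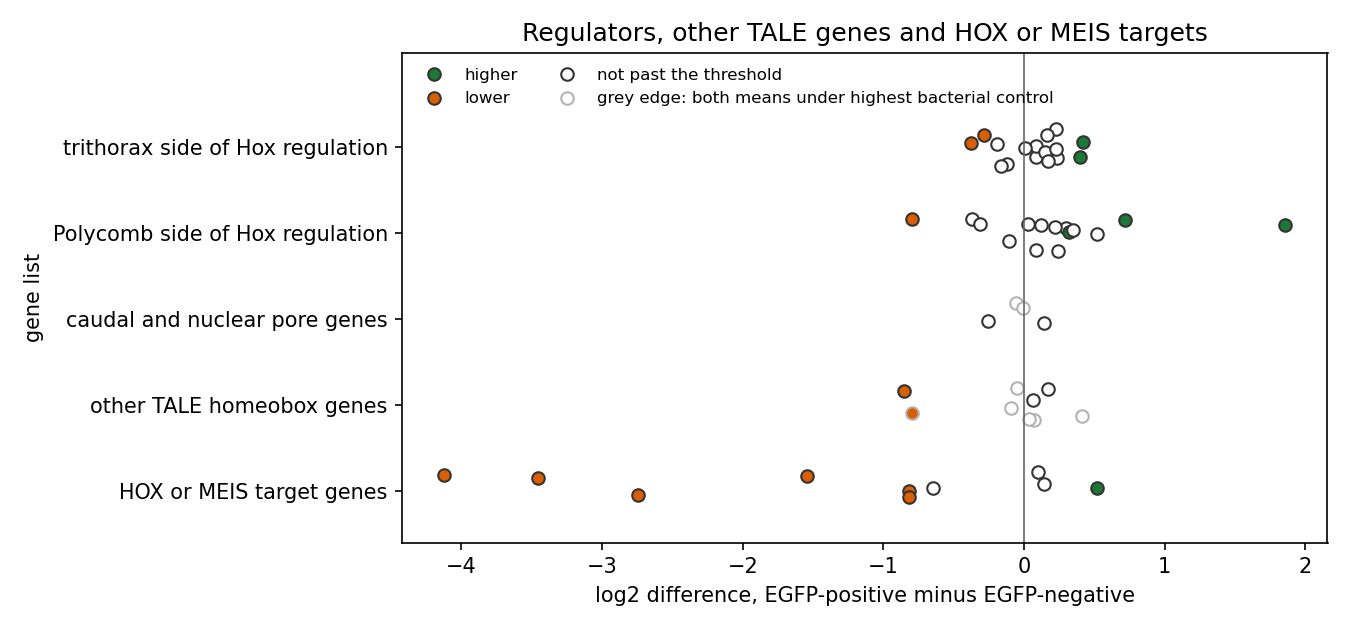
Log2 difference, EGFP-positive minus EGFP-negative, of each measured gene on 5 lists (vertical scatter within a list has no meaning); colour marks genes past the threshold and grey edges genes with both means under the highest bacterial control value. Most trithorax and Polycomb genes lie within 0.5 of 0, Cbx7 lies at 1.86, and HOX or MEIS target genes reach -4.12 (Ccl3).

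Markers of cell type moved between the groups as well. The progenitor genes Kit, Cd34, Flt3 and Myb were all above background and lower in EGFP-positive cells (4 of 4). Cd34, Flt3 and Myb are also on the list of HOX or MEIS targets, so the 2 lists are not separate observations. Neutrophil, mast cell and monocyte markers were lower in 6 of 6, 5 of 5 and 3 of 3 genes. Of the lymphoid markers 2 of 4 were lower, and of all genes 17.2% were lower. Erythroid markers were higher in 5 of 5 genes and epithelial markers in 4 of 4, against 16.0% of all genes. Linear signals were also summed over each list and the log2 of the sum taken, so the brightest probe sets weigh most. That value for neutrophil markers ranged from 11.14 to 11.23 in EGFP-positive and from 14.10 to 14.19 in EGFP-negative arrays. For erythroid markers it ranged from 12.67 to 12.73 in EGFP-positive and from 10.81 to 10.86 in EGFP-negative arrays. For epithelial markers it ranged from 12.24 to 12.26 in EGFP-positive and from 7.35 to 7.39 in EGFP-negative arrays. Of these lists, Rag1 alone was not above background. Of the lineage antigens removed from such cells, Cd3e and Itgam were lower and Cd4 and Cd8a did not pass, with all 4 above background. In sorted fractions, fewer cells of a type and less RNA per cell cannot be told apart. The part of these markers in the Hox and TALE differences was not tested.

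Arrays of the same group correlated at 0.989 (EGFP-positive) and 0.995 (EGFP-negative) across probe sets, and at 0.968 to 0.969 between groups. No pair of arrays shared more than 300 identical values of 45037. The excess of 3′ over 5′ signal of Actb was 1.00 ± 0.03 in EGFP-positive and 0.80 ± 0.05 in EGFP-negative arrays (SD, n = 3 each), and that of Gapdh was 1.06 ± 0.04 in EGFP-positive and 0.82 ± 0.02 in EGFP-negative arrays. Its part in the results was not tested. None of 3 probe sets of Mecom, the gene that encodes EVI1, passed (differences 0.13, 0.09 and -0.29), and no label says whether they match the vector. Those with differences of 0.13 and 0.09 were not above background. The remaining probe set had means of 7.97 in EGFP-positive and 8.26 in EGFP-negative arrays.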

How the data were processed

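The authors deposited log2 expression values for 45101 probe sets on 6 Affymetrix arrays, made by RMA per the submitters' processing notes; no RMA version was given. Per the labels' protocols, RNA was amplified and biotin-labelled from the 3′ end. Groups and replicate numbers came from sample titles. Of 45037 probe sets that were not controls, 932 carried several genes and 9160 none. Each of 18192 genes was read from the brightest probe set (highest mean over all arrays) carrying that gene only, without a filter. limma 3.58.1 (R 4.3.3, lmFit and eBayes, no covariate) gave two-sided tests. The number of arrays limits the precision. The members and lists were chosen with earlier results of these data known. Array-by-array values are given for members above background that passed, changed 1.5-fold or were among the 5 highest signals of their cluster or of the TALE genes; of each list, up to 2 genes per direction with the smallest p were named, and others were chosen after their values were seen. Alternatives were a block for replicate number, 2 scalings, filters on dim genes (that at background chosen after seeing the data), eBayes and weighting options, other probe sets and leaving out each array. The fit was tested on simulated data.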

Additional observations from a re-analysis of the deposited data

Results flagged for a closer look

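The brightest probe set stands for each gene, and other probe sets of a gene did not enter the comparison. For 2 members whose brightest probe set did not pass, a further probe set above background was higher in EGFP-positive than in EGFP-negative arrays, as were 11.6% of all probe sets. A further probe set of Hoxa3 read 6.77, 6.20 and 6.51 in EGFP-positive arrays and 5.60, 5.90 and 5.96 in EGFP-negative arrays (0.67, limma adjusted p = 0.038 over probe sets). It is of the type that can match related transcripts. Another Hoxa3 probe set above background differed by 0.06 (limma adjusted p = 0.84 over probe sets). The remaining one, not above background, differed by 0.68 and did not pass. A further probe set of Hoxc5 read 3.54, 3.54 and 4.01 in EGFP-positive arrays and 2.97, 3.11 and 3.25 in EGFP-negative arrays, where all EGFP-negative arrays lay under the background ceiling of 3.61 (0.59, limma adjusted p = 0.042 over probe sets).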

How the results depend on the processing

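Hoxb3, Hoxb4 and Pknox2 kept their direction and passed under every alternative run, with ranges of 1.22 to 1.33, 0.52 to 0.87 and -1.44 to -0.81, and Hoxa10 under all but the mean of probe sets. Members past the threshold numbered 8 (5 higher, 3 lower) and became 4 (3 and 1) with the replicate block, where Hoxa11, Pbx2, Pbx3 and Pknox1 were lost, and 5 with the fit over all probe sets. Lower members numbered 1 in that fit and 1 with arrays shifted to the same median. Without each array in turn there were 4 to 6 members, 3 to 4 higher and 1 to 2 lower. Replicate numbers did not pair the arrays (correlation of deviations between same-numbered arrays -0.02 to 0.01). With the block, 4900 genes passed over the whole table, against 6045, and 11 genes of the regulator lists, against 17; that number was 11 to 16 without each array in turn. The median of Hoxb genes was 0.99 among brighter genes only and 0.65 with the filter at background, since both leave fewer genes, while without each array in turn that of Hoxa ran from 0.059 to 0.26, that of Hoxc from -0.03 to 0.21 and that of Hoxd from 0.02 to 0.11. The TALE median, -0.13, ran from -0.25 to 0.06 without each array in turn, the highest (0.064) without EGFP-positive replicate 2. With the most variable probe set Mllt1 was -0.22 and Eed -0.10, turned from the values of their brightest probe sets. Over the 40 members and all alternatives, 36 calls were lost, 6 gained and 0 turned. Hoxc5 gained a call in 2 alternatives (limma adjusted p down to 0.0398). Hoxd3, not above background, gained one when 1 array was left out (limma adjusted p = 0.0109). Signals at background limit 21 members.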

Other observations

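Probe sets annotated to Hox antisense transcripts or to several Hox genes did not enter the comparison. Hoxb5os read 5.21, 7.21 and 6.51 in EGFP-positive arrays and 6.55, 7.20 and 6.75 in EGFP-negative arrays, with overlapping groups (-0.53, limma adjusted p = 0.51 over probe sets). The probe sets shared by Hoxd4 and Hoxd3, that shared by Hoxb8 and Hoxb7, and those of Hoxa11os and Hoxd3os1 were not above background, with differences from -0.30 to 0.34.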
